A study of Caenorhabditis elegans with 12 samples.

Results

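The mRNAs described here encode 9 Caenorhabditis elegans factors that shorten, decap and degrade mRNA or that act in nonsense-mediated decay (NMD). They are dcap-1, dcap-2, xrn-1, xrn-2, cgh-1, ccf-1, smg-1, smg-2 and smg-5, chosen by gene symbol. The symbols name 10 of the 46217 gene identifiers in the authors' deposited table, because xrn-2 has a second identifier for a non-coding RNA inside the gene that repeats the same values. All 10 were among the 14890 identifiers with a mean of at least 1 FPKM over the strains compared. FPKM are fragments scaled to transcript length and library size, so a level is relative to the rest of its library. Levels can be set side by side between genes. A difference between strains is one of relative level, not of amount per worm.

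The worms were age-synchronized day 1 adult hermaphrodites grown at 20 °C, and the RNA was total RNA of whole worms. The strain labelled cpl-1*::yfp; rde-1(ne219) (PP2246), called the double strain here, holds the integrated array hhIs113 on chromosome I, given as Pnhx-2::cpl-1W32AY35A::YFP with the marker Pmyo-2::mCherry, and the allele rde-1(ne219) on chromosome V. The cpl-1* strain (PP1386) holds hhIs113 as well, given as Pnhx-2::cpl-1W32AW35A::gfp, and wild type is N2 (PP1). CPL-1* is a misfolding form of a cathepsin L-like protease, and both labels name the intestinal nhx-2 promoter, under the same transgene name but with a different substitution and tag. RDE-1 is the Argonaute protein of the exogenous RNA interference pathway. Of the 4 strains sequenced with 3 samples each, the authors' deposited table used here holds values for these 3, each pooled into 1 FPKM per gene, and the cpl-1WT strain was not analysed here. No spread between samples and no depth can therefore be given, and every ratio below describes pooled libraries and carries no test. In whole worms, fewer cells of a type and less RNA per cell cannot be told apart.

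Most mRNAs are degraded after their poly(A) tail is shortened. Deadenylases of the CCR4-NOT complex remove the tail, the DCAP-2 enzyme then removes the 5′ cap with the help of its activator DCAP-1, and the exonuclease XRN-1 digests the exposed body of the mRNA. DEAD-box helicase CGH-1 links translational repression to decapping in cytoplasmic granules. NMD recognizes mRNAs with a premature stop codon and feeds them into the same route. In the worm germ line CGH-1 is also an abundant component of the granules that protect and repress maternal mRNAs.

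The 9 genes lie on 4 chromosomes of the WBcel235 assembly. The 3 NMD genes are all on chromosome I, with smg-1 (WBGene00004879) from 6900949 to 6913579 on the minus strand, smg-2 (WBGene00004880) from 1176473 to 1190829 on the plus strand and smg-5 (WBGene00004883) from 6734028 to 6736161 on the minus strand. Both exonuclease genes are on the plus strand of chromosome II, with xrn-1 (WBGene00012730) from 14068907 to 14089877 and xrn-2 (WBGene00006964) from 14155768 to 14166030. On the minus strand of chromosome III lie cgh-1 (WBGene00000479) from 7495320 to 7497832 and ccf-1 (WBGene00000369) from 11918828 to 11920237. The decapping genes dcap-1 (WBGene00021929), from 1052524 to 1054794, and dcap-2 (WBGene00003582), from 13513369 to 13521870, are on the minus strand of chromosome IV. Their coding lengths run from 930 bases for ccf-1 to 6972 bases for smg-1, whose longest coding transcript has 42 exons. The study text used here does not state whether the libraries kept strand, so reads from overlapping genes on opposite strands cannot be told apart. This touches dcap-2, which afmd-2 overlaps, xrn-1, which holds the collagen gene col-87 and 4 non-coding RNAs, and smg-2, which holds 1 non-coding RNA. On the same strand lie 4 further non-coding RNAs in xrn-1, 1 in xrn-2 and the small nucleolar RNA gene C07H6.10 in cgh-1. The C07H6.10 row was at 0 FPKM in each strain. The col-87 level was no more than 0.117 FPKM in any of the strains. The table also places dcap-2 in a shared locus with puf-3, with separate values for each gene.

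All 9 mRNAs were lower in the double strain than in cpl-1* worms, by between 1.15-fold for smg-1 and 2.80-fold for cgh-1. Of all 14890 identifiers compared 47.1% were lower, as were 66.2% of those in the range of mean FPKM of the 9 genes. Only cgh-1 was past 2-fold, the size used here to call a gene changed, where 13.8% of all were lower by 2-fold. Between cpl-1* and wild type 8 of the 9 were slightly lower and xrn-2 was slightly higher, and none came near 2-fold. In that comparison 53.5% of all and 65.6% of those in that range were lower. By 2-fold 1.97% of all were lower and 15.5% higher. The order of the levels was headed by cgh-1 and ccf-1 and ended with smg-1 in every strain.

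**Figure D1:**
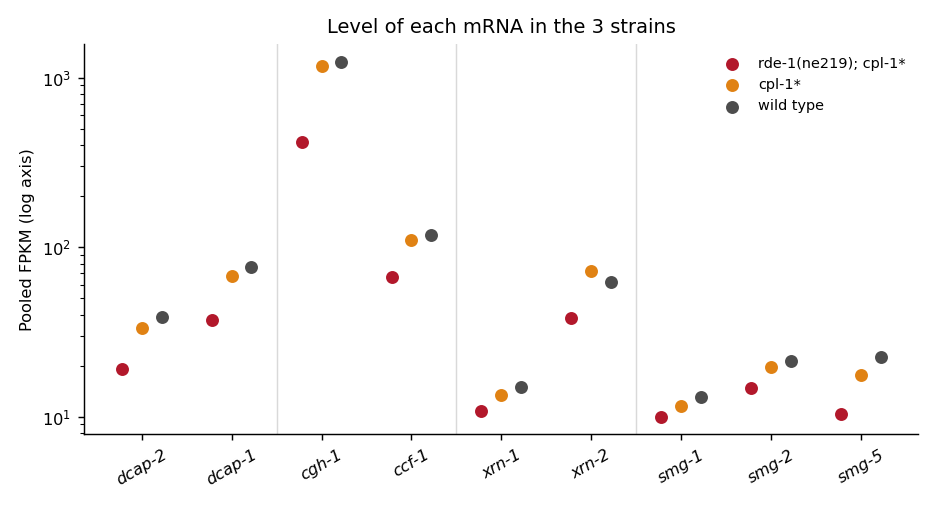
Pooled FPKM of the 9 mRNAs on a log axis, with 1 point per strain (double strain left, cpl-1* middle, wild type right) and vertical lines between the decapping enzyme pair, cgh-1 with ccf-1, the exonucleases and the NMD factors. The cgh-1 points, at 416, 1167 and 1242 FPKM, stand above all others, and the leftmost point of each gene is its lowest.

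The catalytic decapping subunit mRNA, dcap-2, had 19.2 FPKM in the double strain, 33.4 FPKM in cpl-1* and 39.0 FPKM in wild type. Its activator mRNA, dcap-1, had 37.1 FPKM in the double strain, 67.6 FPKM in cpl-1* and 76.9 FPKM in wild type. Both were thus lowest in the double strain, and they kept nearly the same proportion to each other. The dcap-1 level was 1.93 times that of dcap-2 in the double strain, 2.02 times in cpl-1* and 1.97 times in wild type. The log2 ratio of the double strain to cpl-1*, taken here and below with 0.1 added to each FPKM, was -0.79 for dcap-2 and -0.86 for dcap-1. Against wild type the double strain reached -1.01 for dcap-2 and -1.05 for dcap-1, so both fell just past 2-fold in that comparison. With 1 added to each FPKM in place of 0.1, dcap-2 was at -0.98 and no longer past it. For cpl-1* against wild type the log2 ratios were -0.22 for dcap-2 and -0.18 for dcap-1. The afmd-2 row, which the table shares with seld-1, differed in direction from dcap-2, with 26.0 FPKM in the double strain, 24.8 FPKM in cpl-1* and 20.8 FPKM in wild type.

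The helicase mRNA cgh-1 had 416 FPKM in the double strain, 1167 FPKM in cpl-1* and 1242 FPKM in wild type. It was the most abundant of the 9 mRNAs by a wide margin in each strain. In the double strain it changed most of the 9 against either other strain, while between cpl-1* and wild type it changed least. Its level was 6.27 times that of the next mRNA, ccf-1, in the double strain, 10.5 times in cpl-1* and 10.5 times in wild type. Of the summed FPKM of the 9 genes it made up 66.8% in the double strain, 77.1% in cpl-1* and 77.1% in wild type. The cgh-1 mRNA fell by 1.49 on the log2 scale in the double strain against cpl-1*, and 6.68% of all identifiers kept had a lower ratio. Against wild type the double strain's cgh-1 ratio was -1.58, while that of cpl-1* was -0.09.

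The deadenylase mRNA ccf-1, whose product is the CAF1-type catalytic subunit of CCR4-NOT, had 66.4 FPKM in the double strain, 111 FPKM in cpl-1* and 118 FPKM in wild type. It ranked behind cgh-1 in every strain. Its log2 ratio was -0.74 for the double strain against cpl-1*, -0.83 for the double strain against wild type and -0.10 for cpl-1* against wild type. A further deadenylase of the complex, ccr-4, fell by 1.06 in the double strain against cpl-1*, and the ccf-1 level was 1.03 times that of ccr-4 in the double strain, 0.821 times in cpl-1* and 0.783 times in wild type.

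The exonucleases behaved unlike each other. The mRNA of XRN-1, the cytoplasmic enzyme that follows decapping, had 10.8 FPKM in the double strain, 13.5 FPKM in cpl-1* and 15.0 FPKM in wild type. The mRNA of XRN-2, a mainly nuclear enzyme that acts in transcription termination and that in worms also degrades mature miRNAs, had 38.4 FPKM in the double strain, 72.8 FPKM in cpl-1* and 62.4 FPKM in wild type. Only xrn-2 was highest in cpl-1*, with a log2 ratio of 0.22 over wild type, against -0.15 for xrn-1. In the double strain against cpl-1* the log2 ratio was -0.92 for xrn-2, the lowest after cgh-1, and -0.31 for xrn-1. The xrn-2 level was 3.54 times that of xrn-1 in the double strain, 5.41 times in cpl-1* and 4.17 times in wild type. The gene paxt-1, which encodes a binding partner of XRN-2, had 38.5 FPKM in the double strain, 65.6 FPKM in cpl-1* and 72.4 FPKM in wild type, so that it did not share the higher level of xrn-2 in cpl-1*. The xrn-2 row and that of the non-coding RNA within it hold the same values, so their reads are not told apart.

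The NMD mRNAs were, with xrn-1, the least abundant of the group. The kinase mRNA smg-1, whose product phosphorylates SMG-2, had 10.01 FPKM in the double strain, 11.5 FPKM in cpl-1* and 13.0 FPKM in wild type. The mRNA of SMG-2, the UPF1-type RNA helicase at the centre of NMD, had 14.7 FPKM in the double strain, 19.6 FPKM in cpl-1* and 21.4 FPKM in wild type. The smg-5 mRNA, whose product acts on phosphorylated SMG-2, had 10.4 FPKM in the double strain, 17.6 FPKM in cpl-1* and 22.5 FPKM in wild type. Of these, smg-5 differed most in every comparison, and smg-1 differed least in the double strain against either other strain. The log2 ratio of the double strain to cpl-1* was -0.75 for smg-5, -0.41 for smg-2 and -0.20 for smg-1. For cpl-1* against wild type it was -0.36 for smg-5, the lowest of the 9, -0.12 for smg-2 and -0.17 for smg-1. Against wild type the double strain's smg-5 mRNA fell by 1.11, past 2-fold, while smg-2 was at -0.54 and smg-1 at -0.38. The smg-2 level was 1.41 times that of smg-5 in the double strain, 1.12 times in cpl-1* and 0.949 times in wild type. With no spread between samples, the order of xrn-1, smg-5 and smg-1 in the double strain, which lay within 1.04-fold of their neighbours, and that of xrn-2 and dcap-1, 1.03-fold apart, cannot be told from a tie. The same holds for smg-5 and smg-2 in wild type, 1.05-fold apart.

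**Figure D2:**
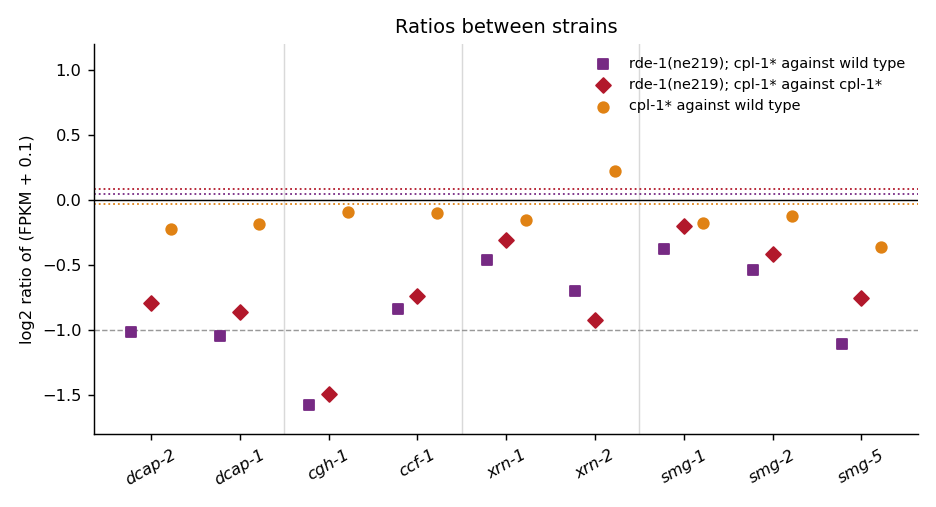
Log2 ratios of FPKM with 0.1 added, for the double strain against wild type (squares), the double strain against cpl-1* (diamonds) and cpl-1* against wild type (circles), with dotted lines at the median of all identifiers kept in the same colour and a dashed line at 2-fold lower. Only cgh-1 (-1.49) lies below the dashed line for the double strain against cpl-1*, and only xrn-2 (0.22) lies above 0 for cpl-1* against wild type. The 3 ratios of a gene share strains and are not independent.

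Counted over the identifiers kept, the median log2 ratio of the double strain to cpl-1* was -0.77 for the 10 identifiers and -0.75 with xrn-2 counted once, beside 0.09 for all 14890. Past 2-fold lower was 1 of the 10, where 13.8% of all identifiers kept were, and past 2-fold higher were 0, where 24.2% were. At 1.5-fold, 7 of the 10 were lower (26.5% of all identifiers kept) and 0 higher (36.4%). With xrn-2 counted once, these 7 are 6 of the 9 genes. All 10 had a ratio below 0, as did 47.1% of all identifiers kept. The distribution of all ratios depended on level. Among the 7919 identifiers whose mean FPKM lay within the range of the 9 genes, a background chosen after seeing the data, the median was -0.34, 66.2% were below 0, 36.8% were lower by 1.5-fold and 16.2% by 2-fold. Relative to the median of all identifiers kept, xrn-2 came to -1.01 and passed 2-fold.

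For cpl-1* against wild type the median log2 ratio was -0.14 for the 10 identifiers and -0.03 for all identifiers kept. None of the 10 was past 2-fold in either direction, where 1.97% of all identifiers kept were lower and 15.5% were higher. None was past 1.5-fold, where 5.81% were lower and 20.8% were higher. Among identifiers in the same range of mean FPKM, 1.04% were lower by 2-fold and 2.79% by 1.5-fold. Of the 10 identifiers 8 had a ratio below 0, where 53.5% of all identifiers kept and 65.6% of those in the same range of mean FPKM had one. In the double strain against wild type, which shares its strains with the other comparisons, the median was -0.77 for the 10 identifiers and 0.05 for all identifiers kept. Lower by 2-fold were 4 of the 10, namely cgh-1, smg-5, dcap-1 and dcap-2, where 17.8% of all identifiers kept and 22.6% of those in the same range of mean FPKM were. None was higher by 2-fold (29.7% of all identifiers kept) or by 1.5-fold (38.6%). At 1.5-fold 7 of the 10 were lower (6 of the 9 genes), beside 30.8% of all identifiers kept and 42.9% of those in the same range. All 10 were below 0, beside 48.6% and 66.8%.

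**Figure D3:**
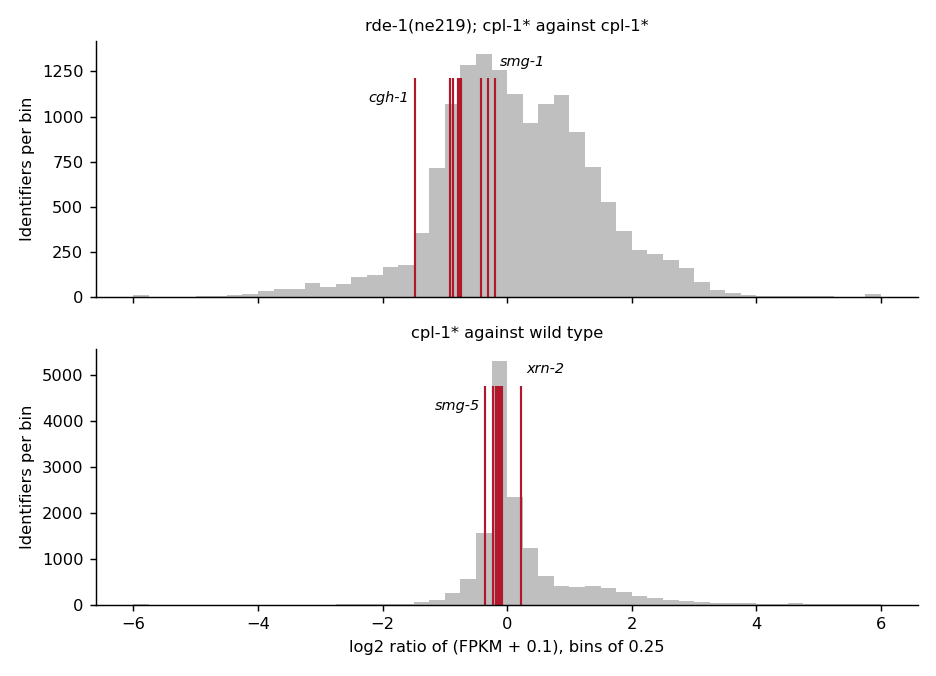
Number of identifiers in bins of 0.25 of the log2 ratio (grey bars, values beyond the axis placed in the end bins), with the 9 genes as red lines, for the double strain against cpl-1* above and cpl-1* against wild type below. In the upper panel the 9 genes run from cgh-1 (-1.49) to smg-1 (-0.20), on the lower side of a wide distribution. In the lower panel they run from smg-5 (-0.36) to xrn-2 (0.22), close to its peak.

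Factors of the same pathways were taken from lists, all but that of the exosome also holding some of the 9 genes. Of 15 decapping factors and activators with a row of their own, dcap-1, dcap-2 and cgh-1 included, 6 fell by 2-fold or more in the double strain against cpl-1*, beside 13.8% of all identifiers kept and 16.2% of those in the range of mean FPKM of the 9 genes. A ratio below 0 was found for 14, beside 47.1% and 66.2%, and the median was -0.79. The lowest after cgh-1 were partners of CGH-1 in repressed mRNPs. These were ifet-1, the worm 4E-T, with 103 FPKM in the double strain, 264 FPKM in cpl-1* and 299 FPKM in wild type, and car-1, an LSM14-type protein of germ granules, with 396 FPKM in the double strain, 990.3 FPKM in cpl-1* and 1065 FPKM in wild type. The ratio of the double strain to cpl-1* was -1.36 for ifet-1, -1.32 for car-1, -1.23 for the PAT1-type activator patr-1 and -1.22 for edc-3, an enhancer of decapping. The cgh-1 level was 1.05 times that of car-1 in the double strain, 1.18 times in cpl-1* and 1.17 times in wild type. By contrast lsm-5, named because it alone of the 15 was above 0, had 138 FPKM in the double strain, 103 FPKM in cpl-1* and 123 FPKM in wild type, a log2 ratio of 0.42 between the cpl-1* strains.

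In the deadenylation list all 12 genes had a ratio below 0 in the double strain against cpl-1*, with a median of -0.78. Past 2-fold were ccr-4 (-1.06) and panl-2 (-1.02), which encodes a subunit of the PAN deadenylase. These 2 of 12 stand beside 13.8% of all identifiers kept and 16.2% of those in that range. The scaffold of CCR4-NOT, let-711, was at -0.80, and ntl-2 was nearest to 0 at -0.18. Of the 13 exosome and SKI genes, which serve decay from the other end of the mRNA, all were below 0 with a median of -0.49. Beside these stand the same 47.1% and 66.2% below 0 and the same medians of 0.09 and -0.34. Only the cap-domain subunit gene exos-3 (-1.11) was past 2-fold, beside the same 13.8% and 16.2%.

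All 13 NMD and exon junction genes had a ratio below 0 in the double strain against cpl-1*, with a median of -0.59, and none was past 2-fold. Below 0 were 47.1% of all identifiers kept and 66.2% of those in the same range of mean FPKM. Lower by 2-fold were 13.8% and 16.2%. Among the partners of the 3 NMD members, the endonuclease gene smg-6 was lowest at -0.95, with 20.2 FPKM in the double strain, 39.1 FPKM in cpl-1* and 44.6 FPKM in wild type. The genes of the SMG-2 binding proteins SMG-3 and SMG-4 were at -0.48 for smg-3 and -0.88 for smg-4, and those of the SMG-1 complex at -0.84 for smg-8 and -0.36 for smg-9. The gene smg-7, whose product resembles SMG-5, was at -0.74. Nearest to 0 was smgl-1, which with 20.2 FPKM in the double strain and 20.3 FPKM in cpl-1* was level between these strains. Over the 47 listed decay genes outside the 9, 8 were past 2-fold lower, a share close to the 13.8% of all identifiers kept and the 16.2% of those in the range of mean FPKM of the 9 genes. Past 1.5-fold lower were 30, beside 26.5% and 36.8%, and 46 were below 0, beside 47.1% and 66.2%. Their median was -0.68, beside 0.09 and -0.34. For cpl-1* against wild type the same 47 had a median of -0.14 and none was past 1.5-fold in either direction.

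**Figure D4:**
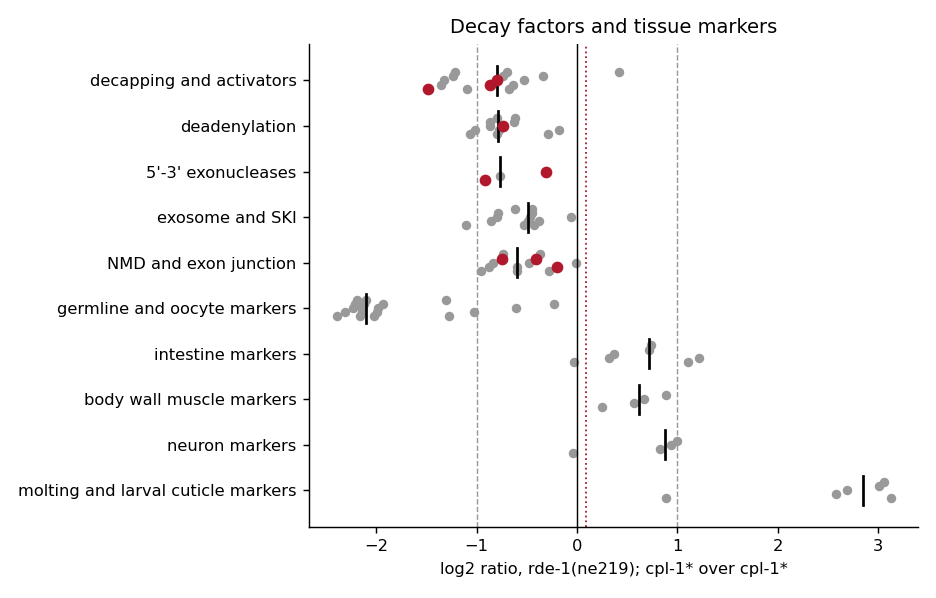
Log2 ratio of the double strain over cpl-1* for each gene of 5 decay lists and 5 marker lists, with the 9 genes in red, the other genes in grey, a black bar at each list's median, dashed lines at 2-fold and a dotted line at the median of all identifiers kept (0.09). The decay lists have medians between -0.79 and -0.49, the germline and oocyte markers one of -2.11 and the 4 somatic lists medians above 0.

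Germline markers were also lower in the double strain. They were, like the other lists, chosen with earlier results of these data known. Of 19 germline and oocyte markers with a row of their own, all were below 0 in the double strain against cpl-1*, beside 47.1% of all identifiers kept. Of these markers 17 fell by 2-fold or more, beside 13.8% of all identifiers kept. The markers had a median of -2.11 and a range from -2.39 to -0.23. Their summed level was 2218 FPKM in the double strain, 8230.1 FPKM in cpl-1* and 8633 FPKM in wild type, and no marker was at 0. The median of the 9 genes (-0.75) lay between that of these markers and those of the intestine (0.72), body wall muscle (0.62), neuron (0.88) and molting and larval cuticle (2.85) markers, and cgh-1 (-1.49) was the member nearest to the germline median. The germline markers were not alike, since glh-1 (-0.23), pgl-1 (-0.61), pgl-3 (-1.03), gld-1 (-1.28) and glp-1 (-1.31) were nearer to 0 and all others, most of them oocyte or eggshell genes, were at -1.93 (oma-1) or lower. Apart from smg-1 (-0.20), the members lay within the range of these markers. Summed over their 7 genes, intestine markers had 1395 FPKM in the double strain, 892 FPKM in cpl-1* and 641 FPKM in wild type. Of these sums act-5 alone held 862, 523 and 374 FPKM. In the double strain against cpl-1* 6 of the 7 were above 0, and vha-6 was at -0.03. Of the 4 neuron markers 3 were above 0, and snb-1 was at -0.03. The part of a different share of germ line or of a different stage in the values of the 9 genes was not tested. In cpl-1* against wild type the germline markers had a median of -0.11, beside -0.15 for the 9 genes. None of these markers was past 2-fold, where 1.97% of all identifiers kept were lower and 15.5% higher.

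The rde-1 mRNA itself had 19.3 FPKM in the double strain, 27.97 FPKM in cpl-1* and 28.34 FPKM in wild type, a value that does not check an allele which can leave its transcript in place. The cpl-1 row, which counts endogenous and transgenic mRNA together, had 9749 FPKM in the double strain, 2920 FPKM in cpl-1* and 1377 FPKM in wild type. The summed FPKM of all identifiers, with repeated values counted once, was 973975 in the double strain, 1032408 in cpl-1* and 1027905 in wild type.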

How the data were processed

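Total RNA of whole worms was sequenced in 12 samples, 3 of each of 4 strains. The study's methods name Ensembl release 91 as the reference and HISAT2, StringTie and Cufflinks as the tools. The submitters' processing notes list HISAT2 2.1.0, StringTie 1.3.4d, Cuffdiff 2.2.1, FastQC 0.11.7 and the WBcel235 build. The authors' deposited table holds FPKM pooled over the samples of a strain, for the double strain rde-1(ne219); cpl-1*, the cpl-1* strain and wild type, in 46218 rows for each of 3 comparisons. A strain's FPKM was the same in every comparison, and for 1 repeated identifier the upper row was kept. The table also holds the authors' own fold changes, test statistics, P and q values, which were not used.

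Log2 ratios were computed as log2 of FPKM plus 0.1, over identifiers with a mean of at least 1 FPKM over the 3 strains. A gene was called changed at 2-fold, since pooled values allow no test. The depth of the samples is not known, and no interval for counting error could be set. The members and lists were chosen with earlier results of these data known. List genes whose row is shared with another gene, or with no row of their own, were left out. All 9 members were named. From the lists, genes past 2-fold between the cpl-1* strains (at most 4 per list) and partners of members were named. Coordinates are from Ensembl release 115, which holds 46042 of the 46217 identifiers. Alternatives were pseudocounts of 0 and 1, no minimum or a minimum of 5 FPKM, ratios relative to the median of all identifiers kept, a 1.5-fold call and repeated values counted once. Limiting the identifiers to protein-coding ones was added after seeing the data. Python 3.11.15, pandas 2.3.3, numpy 2.4.6 and matplotlib 3.10.9 were used. The calls were also run on simulated FPKM with planted changes well past 2-fold. That run checks the calculation only, not calls near 2-fold or variation between samples.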

Additional observations from a re-analysis of the deposited data

How the results depend on the processing

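Settings varied were the pseudocount, the minimum FPKM, the counting of repeated values and the limit to protein-coding identifiers. In all 3 comparisons they left the median of the 10 identifiers within 0.1 on the log2 scale. The count of identifiers past 2-fold stayed within 1.5 times. One call ended, since with a pseudocount of 1 dcap-2 was at -0.98 in the double strain against wild type, which left 3 identifiers past 2-fold in place of 4. With ratios taken relative to the median of all identifiers kept, 3 identifiers, cgh-1 and both of xrn-2, were past 2-fold lower in the double strain against cpl-1*, in place of 1. At 1.5-fold 7 identifiers (6 genes) were lower in that comparison and 7 (6 genes) in the double strain against wild type, in place of 4. No gene's ratio changed sign with a pseudocount of 0 or 1 or relative to that median. No paired analysis was possible because the values are pooled over the replicates of a strain, and leaving out single samples was not possible for the same reason. The smg-1, smg-5 and xrn-1 levels, near 10 FPKM in the double strain, are the least abundant, and their counting error is unknown.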

Other observations

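The gene ontology terms in the authors' deposited table tie 4 of the 9 genes, ccf-1, cgh-1, dcap-1 and dcap-2, to both P-bodies, the cytoplasmic granules of mRNA decay, and P granules, the germline granules. These terms were picked after the values had been seen. Of the 29 other P-body genes, 25 had a ratio below 0 and 7 fell by 2-fold or more in the double strain against cpl-1*, with a median log2 ratio of -0.68. Of the 59 other P granule genes, 53 had a ratio below 0 and 26 fell by 2-fold or more, with a median of -0.72. Past 2-fold lower were 13.8% of all identifiers kept, and 47.1% were below 0. In the range of mean FPKM of the 9 genes these shares were 16.2% and 66.2%. They cover identifiers with and without a term, while the P-body and P granule genes come from the 10586 kept with a term.

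By the distance between their log2 ratios in cpl-1* against wild type and in the double strain against cpl-1*, over the 3 strains, the listed decay gene nearest to dcap-1 was ntl-11 (0.014), and the nearest to smg-1 was ntl-2 (0.021). The nearest to cgh-1 was ifet-1 (0.16). The xrn-2 gene had no listed gene closer than panl-3 (0.35). Of the 14890 identifiers kept, 11 lay as near to dcap-1 as ntl-11 and 598 as near to xrn-2 as panl-3, with the named gene counted. With 3 pooled values such likeness is thus not particular to the listed genes. The comparisons share cpl-1*, so the ratios are not independent.

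Genes often used as references were not alike in these strains. The cdc-42 mRNA had 196 FPKM in the double strain, 210 FPKM in cpl-1* and 219 FPKM in wild type, while pmp-3 had 26.4 FPKM in the double strain, 44.7 FPKM in cpl-1* and 49.8 FPKM in wild type. The log2 ratio of the double strain to cpl-1* was -0.10 for cdc-42, -0.76 for pmp-3, -0.92 for tba-1, -0.62 for ama-1 and 0.16 for act-1. The median of these 5 reference genes was -0.62, beside -0.75 for the 9 decay genes. The gene puf-3, whose locus in the table also holds dcap-2, fell by 1.95 in the same comparison, with 73.0 FPKM in the double strain, 282 FPKM in cpl-1* and 308 FPKM in wild type.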
